A study of Rattus norvegicus with 6 samples.

Results

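The genes followed here are 10 transcripts of the circadian clock, namely *Clock*, *Arntl* (also named *Bmal1*), *Per1*, *Per2*, *Per3*, *Cry2*, *Nr1d1*, *Nr1d2*, *Dbp* and *Tef*. They were picked by gene symbol through the RefSeq accession of each array row, with no rule on their signal. The choice was made with earlier results of these data known. Each gene had 1 row among the 26299 transcripts tested. Skeletal muscle RNA came from 3 lower birth weight (LBW) and 3 average birth weight (ABW) pups, all male Wistar rats aged 1 day, with the soleus and gastrocnemius muscles pooled within a pup. No pup carried a genetic change or received an agent, so that the groups differed by birth weight within the normal range. LBW pups lay between percentiles 5 and 25 of birth weight. ABW pups are given as percentiles 50 to 75 in the treatment protocol and as 25 to 75 in the sample labels. Which pups were littermates, and the hour at which tissue was taken, are not given in the sources used here. Each pup was measured on 1 single-colour array and the signal is a log2 brightness, so that a difference of group means is a log2 fold change, written as LBW minus ABW throughout.

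The circadian clock is a transcriptional feedback loop found in nearly every mammalian cell. The proteins of *Clock* and *Arntl* pair and activate genes that carry an E-box, among them the *Per* and *Cry* genes, whose proteins return to the nucleus and repress the pair. A second loop runs through *Nr1d1* and *Nr1d2*, nuclear receptors that repress *Arntl*, and output factors such as *Dbp* and *Tef* pass the rhythm on to other genes. In adult skeletal muscle the loop times genes of fuel use, and in rodents tissue rhythms are still weak around birth. Transcripts of the activators and of their targets peak at opposite times of day. The level of a clock transcript therefore depends on the hour of sampling as well as on the height of its rhythm. Since the hour is not given for any pup, a different hour in the 2 groups, or in a single pup such as LBW 3, cannot be told apart from a difference at the same hour.

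The promoter sequences of 3 genes are shown because they carry, within a short window, the elements through which the loop is known to act. A window of RefSeq runs from 250 bases before to 50 bases after an annotated start (build GRCr8, the sequence of the gene's own strand, 5′ to 3′). Capitals mark the motif matches. In *Per2* (chr9:99496944-99497243, minus strand) they are a D-box (TTATGTAA), which starts 192 bases before the start, and an E-prime box (CACGTT), 62 bases before it. In *Nr1d1* (chr10:84231763-84232062, minus strand) an E-prime box lies on the opposite strand, 174 bases before the start. In *Arntl* (chr1:176766078-176766377, plus strand) the core of a ROR element (TAGGTCA), the kind of site that the *Nr1d1* and *Nr1d2* proteins bind, starts 16 bases before the start.

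Per2: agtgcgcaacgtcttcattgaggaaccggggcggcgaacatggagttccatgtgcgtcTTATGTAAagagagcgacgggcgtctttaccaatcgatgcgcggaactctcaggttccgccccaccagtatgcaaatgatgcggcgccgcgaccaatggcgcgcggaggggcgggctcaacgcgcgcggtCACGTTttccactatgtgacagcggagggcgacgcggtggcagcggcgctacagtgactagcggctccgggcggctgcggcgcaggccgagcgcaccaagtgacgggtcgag

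Nr1d1: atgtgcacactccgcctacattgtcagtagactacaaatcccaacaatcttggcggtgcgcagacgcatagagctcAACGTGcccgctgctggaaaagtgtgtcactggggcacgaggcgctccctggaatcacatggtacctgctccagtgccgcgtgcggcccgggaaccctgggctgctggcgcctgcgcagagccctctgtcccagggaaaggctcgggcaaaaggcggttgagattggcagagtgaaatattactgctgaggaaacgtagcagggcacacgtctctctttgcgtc

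Arntl: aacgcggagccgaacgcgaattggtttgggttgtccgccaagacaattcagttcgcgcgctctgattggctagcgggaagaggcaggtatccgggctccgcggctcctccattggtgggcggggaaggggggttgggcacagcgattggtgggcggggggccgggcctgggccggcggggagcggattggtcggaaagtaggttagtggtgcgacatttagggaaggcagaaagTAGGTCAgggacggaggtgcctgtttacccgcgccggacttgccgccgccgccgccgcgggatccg

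Over the 12 windows of the 10 genes, searched on both strands, an E-box (CACGTG) was matched in 2 genes, *Nr1d1* (in the window of a second start) and *Tef*. The E-prime box was matched in 3 genes, *Per2*, *Nr1d1* and *Cry2*. The D-box (TTATGTAA or TTACGTAA) was matched in *Per2* and the ROR element core (TAGGTCA or TGGGTCA) in *Arntl*, while no window held a cAMP response element (TGACGTCA). Among all 33469 windows, 6.42% held an E-box, 4.83% an E-prime box, 1.01% a D-box, 6.6% the ROR element core and 1.83% the cAMP response element. For *Per1* and *Tef* the only window given belongs to a start inside the gene, and a window without a match says only that these letters are not in it.

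The 6 arrays were close to each other, with Pearson correlations across transcripts, which are not independent replicates, between 0.9842 and 0.9942. LBW 2 was nearer to ABW 1 (0.9925) than to LBW 1 (0.9913) or LBW 3 (0.9872), and LBW 3 had the lowest correlations with the ABW pups. Of 9 skeletal muscle markers with a row (of 10 listed, *Acta1* and *Ckm* among them) none passed the threshold, and their mean relative to ABW stayed between -0.03 and 0.03 in every pup. Markers of other tissues did move. All 10 bone markers with a row had a positive log2 fold change (44.4% of all transcripts) and 6 passed the threshold as higher in LBW (2.38% of all transcripts). The log2 of their summed signal was 15.13, 12.15 and 15.82 in LBW 1, 2 and 3 and between 11.22 and 11.50 in the ABW pups. Of 8 adipocyte markers with a row 7 were lower (14616 of all 26299 transcripts) and 2 passed as lower (1.89% of all transcripts). The 4 listed neutrophil genes matched to a row, *Mmp8*, *Mmp9*, *S100a8* and *S100a9*, all passed as higher (2.38% of all transcripts). They do not single out precursors. Of the cartilage markers 1 of 3 with a row passed, as higher, and of the erythroid and the brain markers none of 4 each did. A value from whole muscle cannot separate fewer cells of a type from less RNA per cell. The part of these tissues in the clock gene values was not tested.

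The first question was whether the clock transcripts of LBW muscle differed from those of ABW muscle. The 2 genes that passed the unadjusted test were *Per2*, a repressor, and *Nr1d1*, a receptor of the second loop. Other genes of both classes did not pass. *Per2* and *Nr1d1* were about 1.5 times as high in LBW as in ABW pups, and each LBW pup lay above each ABW pup for both. *Per1* was far higher in LBW 1 and LBW 2 but not in LBW 3. *Cry2* and *Nr1d2* had smaller positive differences that did not pass, and those of the activators, *Per3*, *Dbp* and *Tef* were within the spread between pups. At the threshold of the study (a p under 0.05 before adjustment together with a change of at least 1.5 times), 2 of the 10 genes were called by limma, both higher in LBW, where 4.27% of all transcripts were called and 2.38% were called as higher. After Benjamini-Hochberg adjustment over all transcripts 0 of the 10 had an adjusted p under 0.05 by limma, as was the case for all transcripts (0%). The smallest adjusted p among the 10 was 0.254 by limma. At an unadjusted p under 0.05 alone the count was also 2 (12.4% of all transcripts), and the 2-tailed test that the methods name called 2 at the threshold and 0 after adjustment. In 3 of the 10 genes the groups did not overlap, all with LBW higher, compared to 7.27% of all transcripts that were apart in this direction, 10.1% in the opposite one and 17.4% in either. The median log2 fold change of the 10 was 0.15, and that of all transcripts was -0.023.

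**Figure D1:**
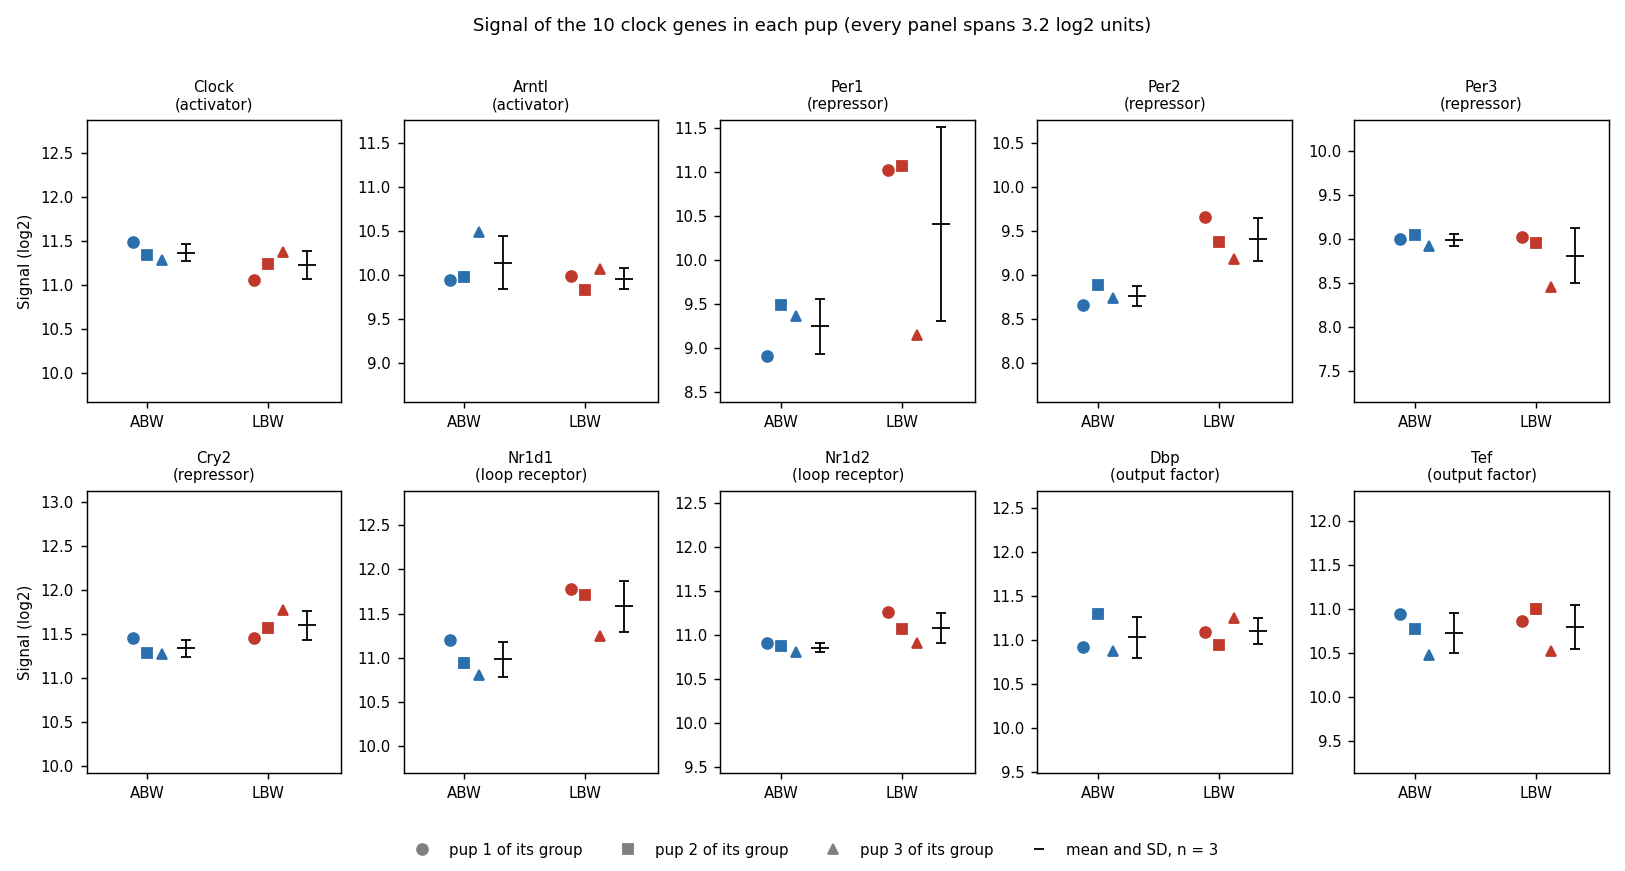
Log2 signal (y axis) of the 10 clock genes in the ABW pups (blue) and the LBW pups (red), a panel for each gene, with symbols for pups 1, 2 and 3 and bars for mean and SD (n = 3). *Per2*, *Nr1d1* and *Nr1d2* have all red points above all blue ones, and *Per1* has LBW 1 and LBW 2 at 11.02 and 11.07 with LBW 3 at 9.15, among the ABW pups.

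Among the repressors, *Per2* (NM_031678), whose protein is a rate-limiting part of the repressor complex, was at 9.65, 9.37 and 9.18 in LBW 1, 2 and 3 and at 8.66, 8.88 and 8.73 in ABW 1, 2 and 3. The lowest LBW pup was 0.29 above the highest ABW pup. The means were 9.40 ± 0.24 (SD, n = 3) and 8.76 ± 0.11 (SD, n = 3), a log2 fold change of 0.64 (SE 0.14, fold change 1.56, limma adjusted p = 0.254). An exact permutation test gave a 2-sided p = 0.1, below which groups of 3 and 3 cannot go. With a single pup left out the log2 fold change lay between 0.51 and 0.75, and it fell short of the fold change criterion only without LBW 1. Without LBW 2, the LBW pup nearest to the ABW arrays, it was 0.65.

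*Per1* (NM_001034125), the *Per* gene that also answers quickly to hormones and cAMP, was at 11.02, 11.07 and 9.15 in LBW 1, 2 and 3 and at 8.91, 9.49 and 9.37 in ABW 1, 2 and 3. LBW 3 thus lay within the ABW values, and the other LBW pups lay above them all. The group means of 10.41 ± 1.10 (SD, n = 3) and 9.25 ± 0.31 (SD, n = 3) gave the largest log2 fold change of the 10 genes, 1.16, with an SE of 0.52 and a 95% interval from -0.10 to 2.41. It did not pass (p = 0.0651, limma adjusted p = 0.437; exact permutation test, 2-sided p = 0.3). The value depended on 1 pup, since without LBW 3 it was 1.79 and past the unadjusted threshold (limma adjusted p = 0.176), compared to 0.83 without LBW 2.

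*Per3* (NM_023978), which is dispensable for the core rhythm, did not share this pattern. Its signal was 9.02, 8.95 and 8.45 in LBW 1, 2 and 3 and 9.0, 9.05 and 8.92 in ABW 1, 2 and 3. Only LBW 3 stood apart, below the other 5 pups. The log2 fold change was -0.18 (95% interval -0.57 to 0.21, limma adjusted p = 0.696), and without LBW 3 it was -0.00. *Per2* minus *Per3* was taken relative to the ABW mean of the same difference. It was 0.86, 0.65 and 0.95 in the 3 LBW pups and between -0.11 and 0.06 in the ABW pups. The groups were apart on this ratio, as they already were on *Per2* alone, and LBW 3 is also the pup with low *Per3*. The ratio shows an unequal change of the pair and not that either gene stayed the same. Of the other ratios computed, *Per1* minus *Arntl* (LBW 3 -0.04, ABW 2 0.39) and *Nr1d1* minus *Arntl* (LBW 3 0.34, ABW 1 0.41) overlapped. *Per2* minus *Arntl*, *Per1* minus *Per3* and *Nr1d1* minus *Nr1d2* did not.

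*Cry2* (NM_133405), the other type of repressor, had its own order of pups. It was at 11.46, 11.57 and 11.77 in LBW 1, 2 and 3 and at 11.46, 11.29 and 11.28 in ABW 1, 2 and 3. LBW 3 was here the highest pup, and LBW 1 and ABW 1 were the same to the second decimal. The log2 fold change of 0.26 (95% interval -0.02 to 0.53) did not pass (limma adjusted p = 0.431).

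Of the receptors of the second loop, *Nr1d1* (NM_145775), which encodes REV-ERB alpha, was at 11.78, 11.71 and 11.25 in LBW 1, 2 and 3. The ABW pups were at 11.20, 10.94 and 10.80. The groups did not overlap, but LBW 3 and ABW 1 were only 0.05 apart, less than the SD within either group. With means of 11.58 ± 0.29 (SD, n = 3) and 10.98 ± 0.20 (SD, n = 3) the log2 fold change was 0.60 (SE 0.18, fold change 1.52, limma adjusted p = 0.303; exact permutation test, 2-sided p = 0.1). This is just past the fold change criterion, and the call was lost without LBW 1 (0.50), LBW 2 (0.54), ABW 2 (0.58) or ABW 3 (0.51), although the unadjusted p by limma was under 0.05 each time.

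*Nr1d2* (NM_147210), which encodes the related receptor REV-ERB beta, had a smaller difference. It was at 11.26, 11.07 and 10.91 in LBW 1, 2 and 3 and at 10.90, 10.87 and 10.80 in ABW 1, 2 and 3. The order of the LBW pups was that of *Nr1d1*, and the groups were 0.02 apart. Its log2 fold change was 0.23 (95% interval -0.04 to 0.49, limma adjusted p = 0.467), short of both criteria.

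Neither activator passed the test, and both had a negative value. *Clock* (NM_021856) was at 11.06, 11.24 and 11.38 in LBW 1, 2 and 3 and at 11.49, 11.34 and 11.29 in ABW 1, 2 and 3. The groups overlapped, with LBW 1 the lowest of all pups. The log2 fold change was -0.14 (95% interval -0.42 to 0.13, limma adjusted p = 0.649). *Arntl* (NM_024362), the only single gene of the mouse loop without which the rhythm stops, was at 9.99, 9.83 and 10.07 in LBW 1, 2 and 3 and at 9.95, 9.98 and 10.49 in ABW 1, 2 and 3. Its log2 fold change of -0.18 (95% interval -0.58 to 0.22, limma adjusted p = 0.713) came from ABW 3, since without that pup it was -0.00. Both intervals leave out a change of 1.5 times upward.

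The output factors *Dbp* and *Tef*, proline and acidic amino acid-rich (PAR) bZIP proteins that bind the D-box, did not pass the test either. *Dbp* (NM_012543) was at 11.09, 10.94 and 11.25 in LBW 1, 2 and 3 and at 10.92, 11.30 and 10.88 in ABW 1, 2 and 3. The LBW values lay inside the range of the ABW values. *Tef* (NM_019194) was at 10.87, 11.00 and 10.52 in LBW 1, 2 and 3 and at 10.95, 10.77 and 10.48 in ABW 1, 2 and 3. The log2 fold change was 0.06 for each, with a 95% interval from -0.29 to 0.41 for *Dbp* and from -0.35 to 0.48 for *Tef* (limma adjusted p = 0.901 and 0.911). The intervals leave out a rise or fall of 1.5 times for both genes.

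**Figure D2:**
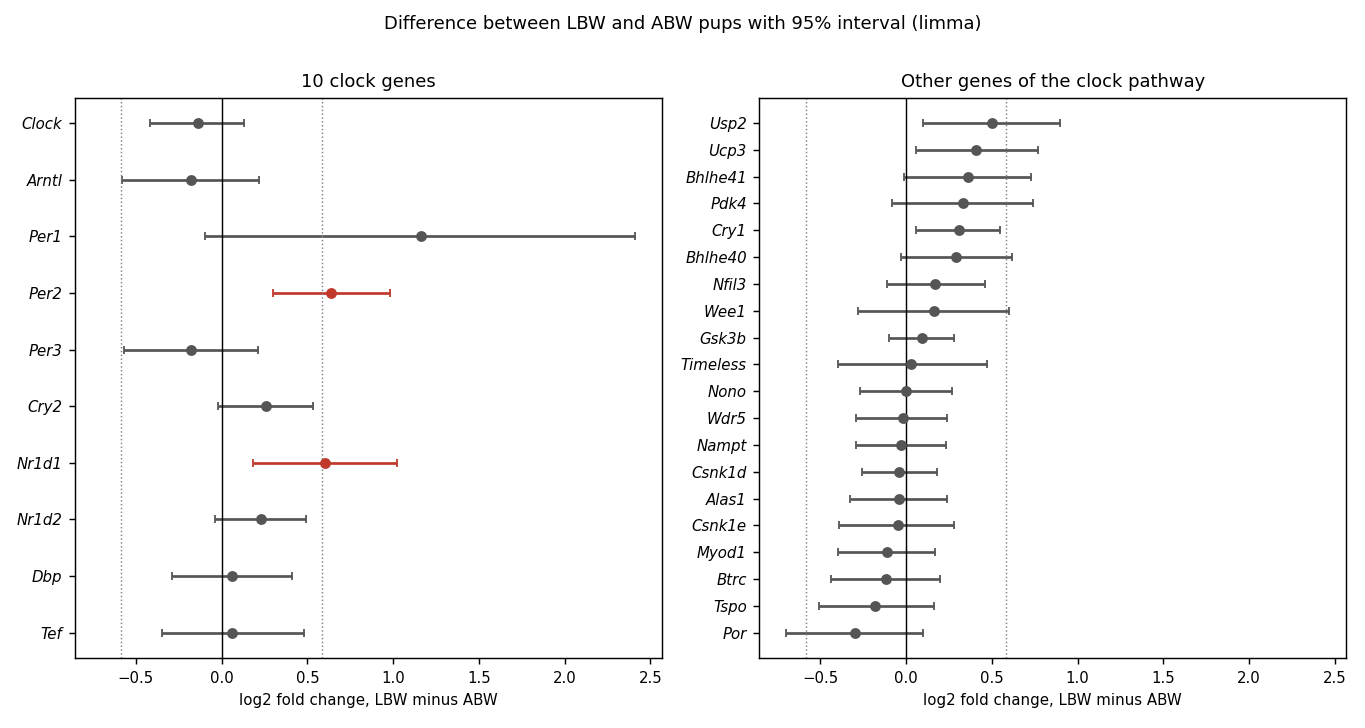
Log2 fold change (x axis, LBW minus ABW) with its 95% interval by limma for the 10 clock genes (left) and the 20 other genes of the clock pathway with a row (right), with dotted lines at a fold change of 1.5 in either direction. The genes past the unadjusted threshold, in red, are *Per2* (0.64) and *Nr1d1* (0.60), and no other gene of the pathway is past it.

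The next comparison set the core activators against the repressors, receptors and output genes within each pup. Each gene was taken relative to its ABW mean and averaged over its class, as a description with no test because the genes were chosen with earlier results known. The mean of the 2 activators was -0.23, -0.22 and -0.03 in LBW 1, 2 and 3 and -0.04, -0.10 and 0.14 in ABW 1, 2 and 3. The mean of the 8 other genes was 0.53, 0.47 and 0.07 in the LBW pups and 0.01, 0.08 and -0.09 in the ABW pups. The difference between the classes was thus 0.76 in LBW 1 and 0.69 in LBW 2, above every ABW pup (0.04, 0.18 and -0.22). In LBW 3 it was 0.10, between ABW 1 and ABW 2. The group means differed by 0.51. With each of the 10 genes left out in turn the value lay between 0.40 (without *Per1*) and 0.59 (without *Per3*), whereas leaving out pups gave 0.72 (no LBW 3) down to 0.39 (no LBW 1), with 0.43 when LBW 2 was the one left out.

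By role, the 4 repressors averaged 0.70, 0.65 and 0.05 in LBW 1, 2 and 3, compared to -0.08 to 0.09 in the ABW pups. The receptors averaged 0.61, 0.47 and 0.17, with the ABW pups between -0.12 and 0.13, and were the class in which every LBW pup was above every ABW pup. The output factors averaged 0.10, 0.09 and 0.00, inside the ABW range of -0.20 to 0.15. LBW 3 was the lowest LBW pup in 6 of the 8 genes that are not activators, compared to 38.1% of all transcripts, and the exceptions were *Cry2* and *Dbp*. Markers of other tissues also differed among the LBW pups. The adipocyte markers averaged -0.38, -0.42 and -1.19 relative to ABW in LBW 1, 2 and 3 and -0.60, 0.39 and 0.21 in ABW 1, 2 and 3. LBW 1 and LBW 2 were thus alike and inside the ABW range, and LBW 3 was below it. In *Per1* and the repressor mean LBW 3 lay among the ABW values, and LBW 1 and LBW 2 lay above them. LBW 3 was the lowest LBW pup in 7 of the 8 adipocyte markers (38.1% of all transcripts). The bone markers averaged 3.02, 0.51 and 3.91 in LBW 1, 2 and 3 and between -0.12 and 0.15 in the ABW pups. LBW 2 was the lowest LBW pup in all 10 of them (7671 of all 26299 transcripts). The part of either tissue in the order of the pups was not tested.

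**Figure D3:**
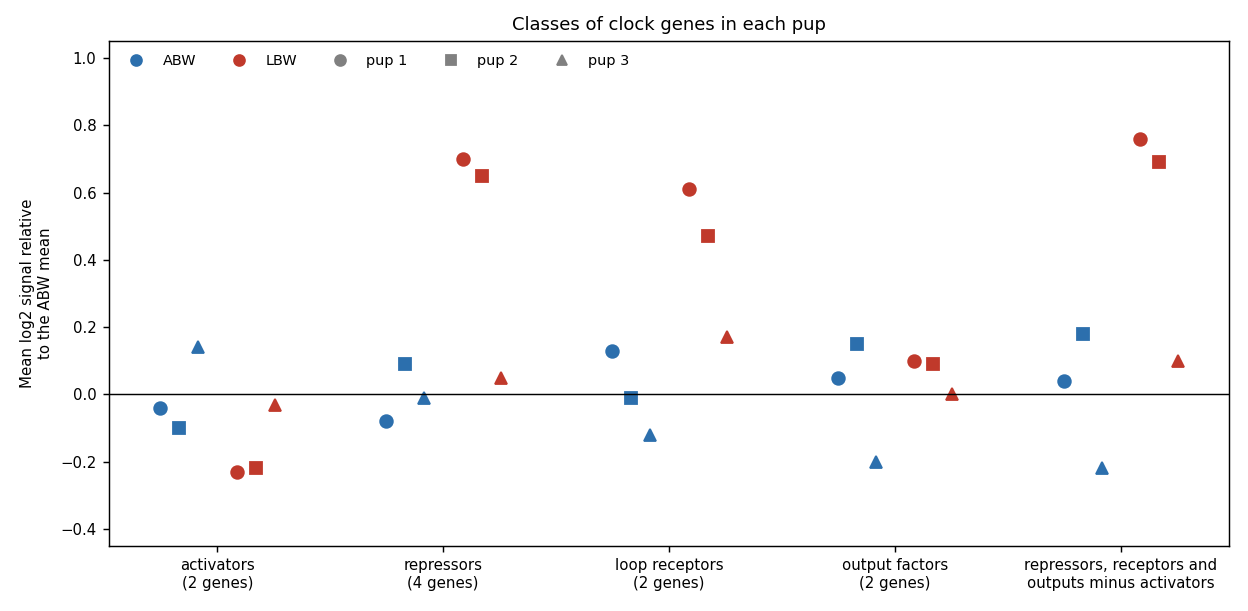
Mean log2 signal relative to the ABW mean (y axis) for each class of clock genes and for the difference between the 8 repressor, receptor and output genes and the 2 activators, with a point for each ABW pup (blue) and LBW pup (red). In the difference LBW 1 (0.76) and LBW 2 (0.69) stand above all ABW pups, whereas LBW 3 (0.10) lies among them.

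**Figure D4:**
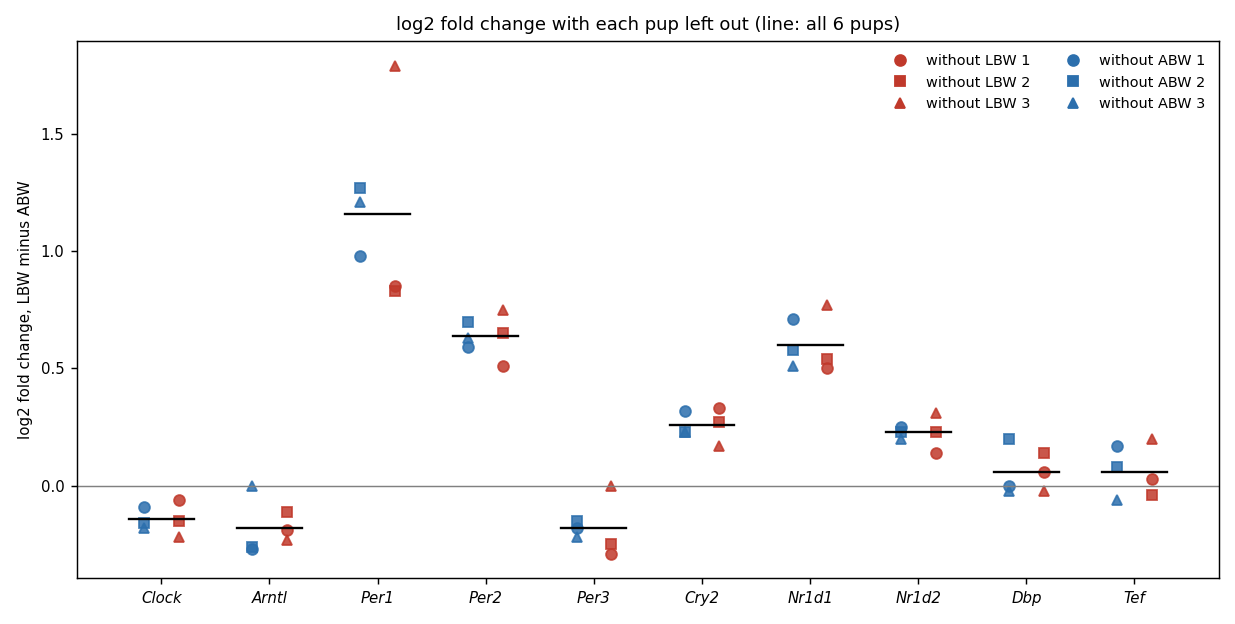
Log2 fold change (y axis, LBW minus ABW) of the 10 clock genes with all pups (black line) and with each pup left out (points, coloured by the group of that pup). *Per1* runs from 0.83 to 1.79 and is highest without LBW 3, *Per2* stays between 0.51 and 0.75, and *Dbp* and *Tef* lie on both sides of 0.

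Of 33 other genes of the clock pathway, 20 had a row. None of the 20 passed the threshold of the study, 10 had a positive and 10 a negative log2 fold change, and the median was 0.01. At an unadjusted p under 0.05 by limma 3 of them differed (12.4% of all transcripts, 5.63% with LBW higher), each higher in LBW with no overlap, and these are named after their values were seen. *Usp2*, a ubiquitin protease that acts on clock proteins and is itself a target of the loop, was at 10.78, 11.10 and 10.57 in LBW 1, 2 and 3 and at 10.54, 10.25 and 10.17 in ABW 1, 2 and 3. Its log2 fold change was 0.50 (SE 0.17, limma adjusted p = 0.331), which passed the fold change criterion without LBW 3 (0.62) or without ABW 1 (0.61). *Cry1*, the partner of *Cry2* in repression, was at 10.69, 10.86 and 10.64 in LBW 1, 2 and 3 and at 10.53, 10.42 and 10.32 in ABW 1, 2 and 3. The log2 fold change of *Cry1* was 0.31 (SE 0.10, limma adjusted p = 0.332). For *Ucp3*, a mitochondrial carrier of muscle that rises with fatty acid use, it was 0.41 (SE 0.15, limma adjusted p = 0.353).

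The 5 partners and loop genes with a row, *Cry1*, *Nfil3*, *Bhlhe40*, *Bhlhe41* and *Timeless*, all had positive values, from 0.03 to 0.36, where 44.4% of all transcripts were above 0. The kinases of the loop did not pass. *Gsk3b* differed by 0.09 (95% interval -0.10 to 0.28) and *Csnk1d*, which phosphorylates the PER proteins, by -0.04 (95% interval -0.26 to 0.18). Both had the smallest standard errors of the 20, 0.08 and 0.09.

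*Per1* is also a direct target of the glucocorticoid receptor, and a list of 13 genes that respond to glucocorticoids was therefore read beside it. Of the 12 with a row 11 had a positive log2 fold change (44.4% of all transcripts). The median was 0.36, and that of all transcripts was -0.023. Limma called 2 of them at the threshold of the study, both higher in LBW (2.38% of all transcripts), and 0 after adjustment. At an unadjusted p under 0.05 by limma 3 differed (12.4% of all transcripts, 5.63% with LBW higher). *Klf9*, a transcription factor that glucocorticoids induce, was at 10.07, 10.12 and 8.93 in LBW 1, 2 and 3 and at 8.18, 7.73 and 8.01 in ABW 1, 2 and 3. Every LBW pup was above every ABW pup by at least 0.75, and LBW 3 was the lowest of the 3 LBW pups. The log2 fold change of *Klf9* was 1.73 (SE 0.33, fold change 3.32, limma adjusted p = 0.238), and it kept its call with any pup left out (1.53 to 2.12). *Cebpd* was at 8.65, 8.83 and 8.03 in LBW 1, 2 and 3 and at 7.82, 7.86 and 7.65 in ABW 1, 2 and 3, a log2 fold change of 0.73 (SE 0.21, limma adjusted p = 0.302), and its call was lost without LBW 2 (0.56). The gene of the receptor itself, *Nr3c1*, was at 11.13 to 11.25 in the LBW pups and at 11.22 to 11.29 in the ABW pups, a difference of -0.06 (95% interval -0.26 to 0.13).

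LBW 3 was the lowest LBW pup in 10 of the 12 genes (38.1% of all transcripts), the same pup as in *Per1*. This order was not particular to the list. LBW 3 was also lowest in 4 of 4 brain markers, 7 of 8 adipocyte markers and 11 of 20 other clock pathway genes. The brain markers *Gfap*, *Snap25* and *Syt1* were dim, at 5.78 to 6.44 in the LBW pups. Their LBW pups spanned only 0.08, 0.15 and 0.16, so their order says little. *Pdk4* is in both the glucocorticoid list and the other clock list. It was lowest in 2 of 9 skeletal muscle markers and 0 of 10 bone markers. The mean of the 12 genes relative to ABW was 0.68, 0.76 and 0.14 in LBW 1, 2 and 3, and between -0.09 and 0.10 in the ABW pups. *Zbtb16*, a zinc finger gene that glucocorticoids strongly induce, was at 10.83, 10.57 and 8.55 in LBW 1, 2 and 3 and at 8.80, 8.59 and 8.43 in ABW 1, 2 and 3. Like *Per1*, it was high in LBW 1 and LBW 2 and within the ABW values in LBW 3. It did not pass with all pups (log2 fold change 1.37, SE 0.58, limma adjusted p = 0.409), and without LBW 3 it was 2.09. *Errfi1*, a feedback inhibitor of the EGF receptor, was apart between the groups in all pups, at 12.62 to 12.82 in LBW and 12.26 to 12.30 in ABW. Its log2 fold change of 0.46 (SE 0.09, limma adjusted p = 0.244) stayed short of the fold change criterion. No hormone was measured with these arrays, and the part of glucocorticoids in the *Per1* values was not tested.

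**Figure D5:**
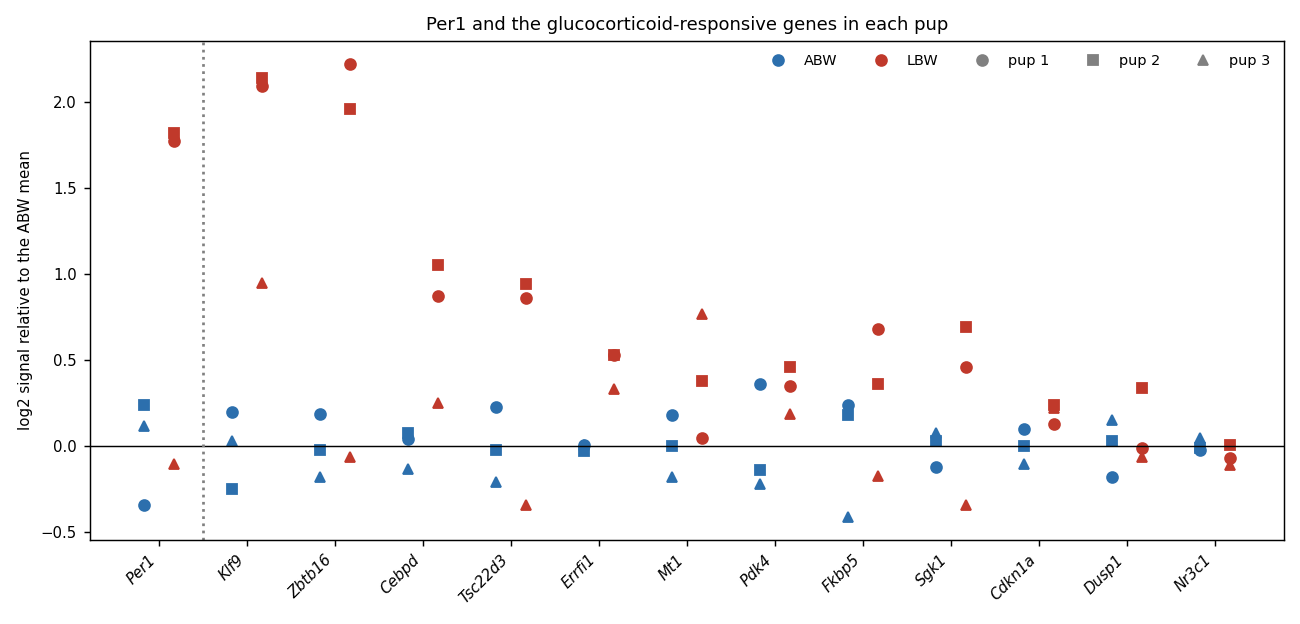
Log2 signal relative to the ABW mean (y axis) of *Per1* (left of the dotted line) and of the 12 glucocorticoid-responsive genes with a row, in each ABW pup (blue) and LBW pup (red). In *Per1*, *Klf9*, *Zbtb16*, *Cebpd* and *Tsc22d3* LBW 1 and LBW 2 lie above all ABW pups and LBW 3 (triangle) is the lowest of the red points.

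The transcripts with a pattern most like that of a clock gene were sought among 9626 other named transcripts, by the root mean square difference of log2 values after each was centred on its own mean over the 6 pups. For *Dbp*, which spans only 0.43 over the pups, the nearest were *C5h1orf159* (0.040), *Ceacam11* (0.046) and *Or10q12* (0.051). The signal of *Or10q12*, an olfactory receptor gene, was between 4.98 and 5.33, near the lowest value on the arrays (4.577), so that such likeness is found among transcripts at the floor. For *Per1*, which spans 2.16 and was added after its values were seen, the nearest was *Zbtb16* (0.316), followed by *Sslp1l1* (0.449) and *Pde6h* (0.451). Of the other clock genes, *Per2* (0.602, rank 60) and *Nr1d1* (0.613, rank 64) came nearest to *Per1*, and *Clock* (0.990, rank 8192) was the farthest. Over 6 pups this measure is a description with no test.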

How the data were processed

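RNA from the skeletal muscle of 6 pups (3 LBW, 3 ABW) was hybridized to NimbleGen single-colour arrays with 5 probes for each transcript. The authors deposited normalized log2 values for 26419 rows, made by their own scripts in R and Bioconductor, and the processing notes of the submitters name RMA, without a version. The values, from 4.577 to 15.49 with array medians of 8.695 to 8.757, carry no detection call. Arrays have no count depth, and their number limits the precision.

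Row accessions were matched to RefSeq symbols (GRCr8), which named 9747 rows (36.9%) and 9627 symbols. A gene is said to have a row where a named row carries its symbol. A listed gene without one can still be among the unnamed rows, as with *Camp* and *Ngp*, which the paper lists as higher in LBW. Rows of a symbol were averaged, leaving 26299 transcripts, tested in R 4.3.3 by limma 3.58.1 (default eBayes after lmFit, no covariate, 2-sided, Benjamini-Hochberg adjustment over all of them). The code was tested on simulated data. The members and lists were chosen with earlier results of these data known. Genes named are the 10 clock genes, genes of the other lists past the threshold of the study (or the 3 with the smallest SE), and the 3 transcripts nearest to *Dbp*. Others are said to be named after their values were seen, as are *Zbtb16* and *Errfi1*. *Cry1* falls under both rules.

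Alternatives tried were a block on the replicate number, fits without each pup, quantile normalization, median centring, leaving out the dimmest 25% of transcripts, an intensity trend, a robust prior, array weights, the Student's test of the methods, unaveraged rows and other fold change criteria. Protein sequences were not used here.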

Additional observations from a re-analysis of the deposited data

How the results depend on the processing

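The number of clock genes past the threshold of the study (2) was 0 to 3 with a single pup left out, 0 at a fold change of at least 2, and within 1.5 times that count under the other alternatives. It was 3 with an intensity trend or array weights, where *Per1* passed (1.16 and 1.32). The array weight was lowest for LBW 3 (0.5765). None of the alternatives, the methods' test included, gave a clock gene with an adjusted p under 0.05. Over all transcripts the count was 1124, between 798 and 1546 without a single pup, 584 by the methods' test, 335 at a fold change of at least 2 and 3250 with no fold change criterion. After adjustment it was 0, and 0 to 125 without a single pup (125 without LBW 2). The count of other clock pathway genes (0) was 0 to 1 without a single pup and 3 with no fold change criterion. *Zbtb16* also passed with array weights (1.66) and, at 1.37, with the replicate block, an intensity trend or the dimmest transcripts left out.

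Signs turned only near 0. *Dbp* was at -0.01 with array weights and between -0.02 and 0.20 without a single pup, *Tef* between -0.06 and 0.20, and *Csnk1d* between -0.09 and 0.00. The difference between the classes, 0.51, was 0.39 to 0.72 without a single pup.

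The sample labels number the pups but do not say whether equal numbers form pairs. Pups of the same number deviated together from the group means with small correlations of 0.087, 0.104 and 0.055. Those of unequal number lay between -0.096 and 0.021, so that each pup correlated best with its own number. Each group was centred on its own mean first, so these correlations are not independent of each other. They cannot settle whether the pups were paired. With the replicate number as a block 2 clock genes and 1230 transcripts passed, *Per2* stayed at 0.64 and *Nr1d1* at 0.60, and the difference between the classes at 0.51. How far dim signals lie above background is unknown.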
